A study of Mus musculus with 24 samples.

Results

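RNA of primary mouse microglia was compared between 2 stimulated states: CD14-deficient cells given mouse fibronectin and wild-type cells given a low dose of LPS. Each state was set against untreated cells of its own genotype, and the 2 responses were then set against each other. The CD14-deficient strain was B6.129S4-Cd14tm1Frm/J (KO below) and the wild type was C57BL/6 (WT). Cells came from newborn (p0) mice and were stimulated for 3 h with fibronectin at 100 µg/ml (FN) or with Re-LPS at 0.1 ng/ml. The 4 groups were KO FN, KO untreated, WT LPS 0.1 ng/ml and WT untreated, with 3 libraries each from separate cell preparations. These 12 libraries were chosen by their labels from the 24 of the series, which also holds WT cells with FN, KO cells with LPS 0.1 ng/ml and both genotypes with LPS 10 ng/ml. Every group is a culture of newborn cells, and the deletion was present throughout the KO animals rather than in microglia alone. The 2 stimulated states differ in genotype and in stimulus at once, so the part of each in a difference between them cannot be told apart.

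Microglia are the resident macrophages of the brain. CD14 is a membrane protein that hands LPS to TLR4 and its partner MD-2 (Ly96). From the cell surface TLR4 signals through MyD88 to NF-kB, which drives cytokine and chemokine genes together with its own inhibitors. After CD14-dependent uptake into endosomes it signals through TRIF (Ticam1) to IRF3, which drives interferon beta, and secreted interferon then acts through factors that include STAT2 and IRF9 on a large group of antiviral genes. Fibronectin is a matrix and plasma protein that can also act as an endogenous stimulus of TLR4.

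The 12 libraries held between 14939019 and 20258255 reads assigned to genes, and 13294 of 18919 listed genes passed the filter on low counts. Levels are given as CPM, a gene's read count relative to its library's total after scaling with TMM (trimmed mean of M-values) factors, and are not corrected for gene length. Cd14 had 4.40, 5.25 and 3.42 CPM in KO FN libraries and 4.58, 4.14 and 3.05 CPM in KO untreated libraries. It had 3119.8, 2224 and 935 CPM in WT LPS libraries and 1150.2, 639 and 338 CPM in WT untreated libraries. No KO library overlapped a WT library, and Cd14 was the 1 gene of 13294 (0.00752%) that differed between untreated KO and untreated WT cells in edgeR's test. The summed level of 9 microglial markers lay between 7561 and 9144 CPM in all 12 libraries. Summed markers of the oligodendrocyte lineage (11 genes) were 179 to 257 CPM in KO FN, 184 to 246 in KO untreated, 254 to 441 in WT LPS and 224 to 428 in WT untreated libraries. Astrocyte (10 genes), neuronal (7) and vascular or fibroblast (7) markers summed to at most 38.8, 74.7 and 6.62 CPM in any library, and the part of other cells in the results was not tested. In bulk RNA, fewer cells of a type and less RNA per cell cannot be told apart. Replicate 3 of WT LPS stood apart, with the weakest response of its group and 3.62% of its reads on the ribosomal RNA gene Rn45s, against 0.0342% to 0.785% in the other 11 libraries.

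The 2 responses had close median sizes. Fibronectin changed 2180 genes in KO cells (16.4% of those tested), of which 1227 rose (9.23%) and 953 fell (7.17%). LPS at 0.1 ng/ml changed 2075 genes in WT cells (15.6%), of which 1322 rose (9.94%) and 753 fell (5.66%). All calls were made at an adjusted p under 0.05 in edgeR's quasi-likelihood test with Benjamini-Hochberg adjustment over all genes. Over the 2917 genes called in either response the median size of change was 0.73 (log2) with FN in KO cells and 0.77 with LPS in WT cells. Across these genes the 2 responses correlated with Pearson's r of 0.814; genes are not independent replicates, and the responses share no library.

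Of the rises, 820 were called in both responses, which is 66.8% of those with FN in KO cells and 62% of those with LPS in WT cells. Of the falls, 514 were called in both, which is 53.9% of the KO FN falls and 68.3% of the WT LPS falls. Among the 1334 genes called in both in the same direction, the median size of change was 1.09 with FN in KO cells and 0.99 with LPS in WT cells. A gene called in one response and not in the other was not thereby shown to differ, so the difference itself was tested: the log2 fold change of FN in KO cells minus that of LPS in WT cells. It passed for 138 genes (1.04% of 13294), of which 137 had the lower response in KO FN (1.03%) and 1 the higher (0.00752%). Over all genes the median difference was -0.01, and the 95% interval of a gene's difference reached 0.67 (median) to either side. Same-numbered libraries of a genotype varied together. With a term for each cell preparation within its genotype the test called 707 genes (5.32%), 241 higher in KO FN (1.81%) and 466 lower (3.51%). With that preparation term 2860 genes rose (21.5%) and 2991 fell (22.5%) in KO FN (44% called), and 2814 rose (21.2%) and 2706 fell (20.4%) in WT LPS (41.5% called). Of the 407 rises called without the term with FN in KO cells and not with LPS in WT cells, 0 had a called difference without it. Among the 502 called the other way round, 108 did. With the preparation term in the test of the difference, 80 of the 407 had a called higher response in KO FN, against 1.81% of all genes. Among the 502, 215 without a called change in KO FN and 4 that fell there had a called lower one, against 3.51%. Both sets were picked by calls from the same libraries, which pushes their differences in these directions. Their shares are therefore not independent evidence.

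**Figure D1:**
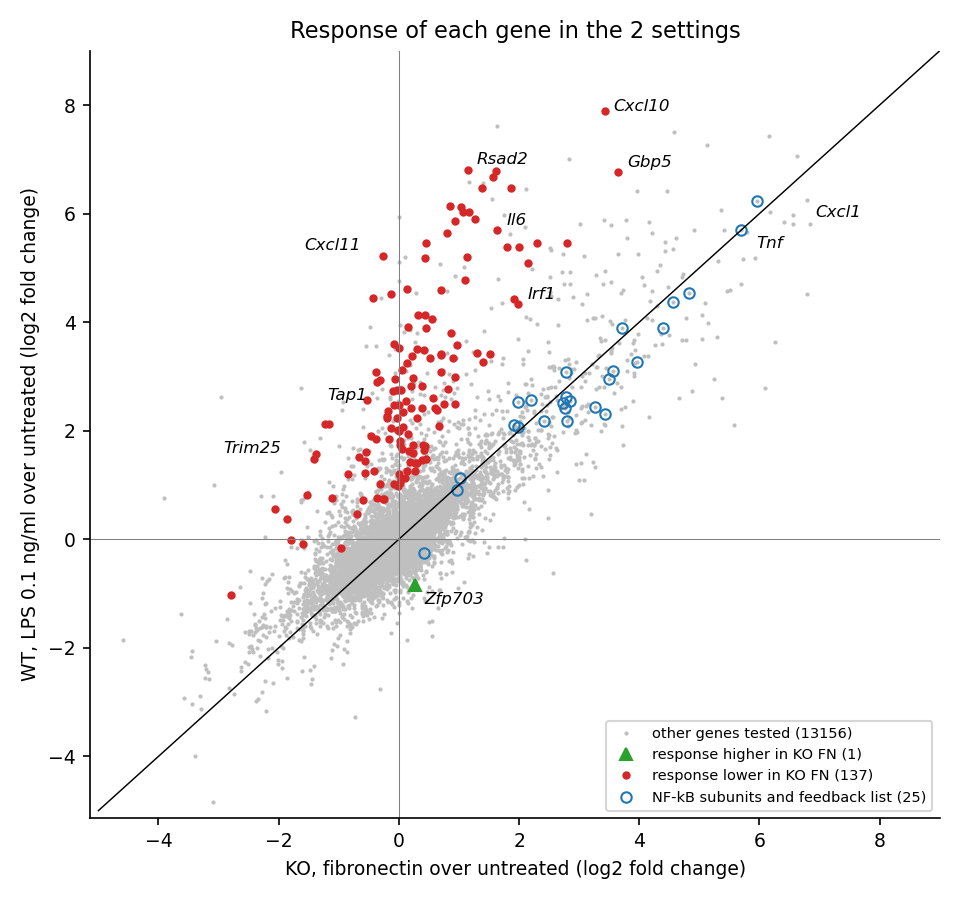
Each of 13294 genes by its log2 fold change with fibronectin in KO cells (x axis) and with LPS 0.1 ng/ml in WT cells (y axis), with the line of equal response. The 137 genes with a lower response in KO FN (red) lie above the line, many near 0 on the x axis, while the 25 genes of the NF-kB list (blue rings) lie along it.

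The NF-kB program rose in both states. Of 25 measured NF-kB subunits, feedback inhibitors and direct targets, 24 rose with FN in KO cells and 24 with LPS in WT cells, and 0 fell in either. The test of the difference was passed by 0 of the 25, against 1.04% of all genes. Their median change was 2.80 in KO FN and 2.55 in WT LPS, against -0.02 and -0.01 over all genes tested, and the median difference was 0.22. With the preparation term, 1 of the 25 had a called difference, Zc3h12a, the regnase that degrades cytokine mRNAs, with the higher response in KO FN (adjusted p = 0.0125). Tnfaip2, a TNF-induced gene, had 2316, 2225 and 2305 CPM in KO FN libraries, against 76.5, 77.9 and 86.3 CPM in KO untreated ones. In WT cells it had 2699, 2147 and 1094 CPM with LPS and 97.0, 82.9 and 76.3 CPM untreated. Stimulated libraries stood far above untreated ones in both genotypes, by 4.83 ± 0.26 log2 units in KO FN and 4.54 ± 0.26 in WT LPS (± SE, n = 3 per group, adjusted p = 2.1e-09 and 7.3e-09). Icam1, the adhesion molecule that binds leukocyte integrins, rose by 4.57 ± 0.34 in KO FN and 4.36 ± 0.34 in WT LPS, and their difference was 0.20 ± 0.41. Nfkbia, the inhibitor IkB alpha, rose by 3.56 ± 0.25 in KO FN and 3.11 ± 0.24 in WT LPS.

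The proinflammatory cytokine Tnf had 1543, 941 and 1375 CPM in KO FN libraries, against 25.8, 14.3 and 29.4 CPM in KO untreated libraries. It had 2118, 1432 and 438 CPM in WT LPS libraries, against 38.9, 26.0 and 13.7 CPM in WT untreated libraries. The stimulated groups overlapped each other, and the difference of response was 0.13 ± 0.60 log2 units (adjusted p = 0.99994). Il1b, which encodes interleukin-1 beta, rose by 5.31 ± 0.49 with FN in KO cells and 5.14 ± 0.49 with LPS in WT cells, with a difference of 0.17 ± 0.58. Cxcl1, a neutrophil chemokine, had 52.1, 23.8 and 70.1 CPM in KO FN and 0.434, 0.293 and 0.610 CPM in KO untreated libraries. Its level was 56.6, 21.5 and 6.54 CPM in WT LPS and 0.727, 0.237 and 0.148 CPM in WT untreated libraries. The Cxcl1 difference was 0.55 ± 1.09, and replicate 3 of WT LPS was the lowest of its group. Cxcl2, of the same family, rose by 6.85 ± 1.02 in KO FN and 5.82 ± 0.97 in WT LPS. Socs3, the feedback inhibitor of interleukin-6 receptor signalling, rose by 5.69 ± 0.50 in KO FN and 5.69 ± 0.50 in WT LPS. Nos2 (inducible nitric oxide synthase), Ptgs2 (cyclooxygenase-2), Ptges (prostaglandin E synthase) and Irg1 (the itaconate-forming enzyme) also rose in both states. Of the 18 genes of their list 0 had a called difference, against 1.04% over all genes. Without the preparation term 8 rose and 1 fell in KO FN and 9 rose in WT LPS. With it 9 rose and 4 fell in KO FN, and 10 rose and 1 fell in WT LPS. Alox5ap, the partner protein of 5-lipoxygenase, then had a called difference, lower in KO FN. Of 17 genes of the TLR4 receptor complex and its adaptors 7 rose in KO FN and 8 in WT LPS, with 0 called differences against 1.04% over all genes. With the preparation term 11 rose and 1 fell in KO FN, 10 rose and 1 fell in WT LPS, and the difference was called for Ticam1, higher in KO FN, and for the deleted Cd14, lower. Tlr2, the receptor for bacterial lipoproteins, rose by 3.80 ± 0.32 in KO FN and 3.10 ± 0.31 in WT LPS. Tlr4 and Ly96 passed in neither response, with changes of -0.71 ± 0.32 and -0.33 ± 0.24 in KO FN and -0.23 ± 0.32 and 0.04 ± 0.24 in WT LPS. Tlr4 fell in KO FN with the preparation term (adjusted p = 0.00114). In WT cells Cd14 itself rose by 1.56 ± 0.47 with LPS (adjusted p = 0.0299). Its difference of -1.41 ± 0.68, with the gene deleted in KO cells, was called with the preparation term (adjusted p = 6.0e-04) and not without it (0.905).

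**Figure D2:**
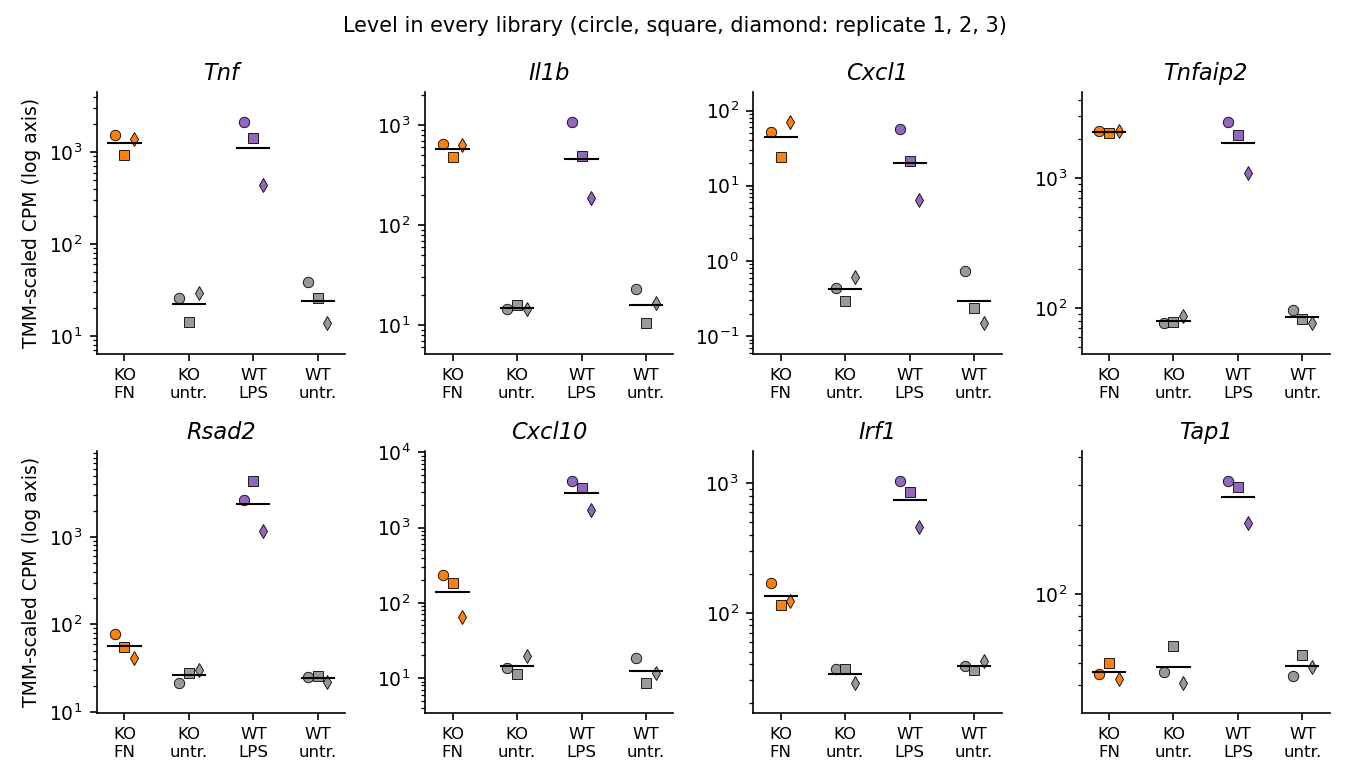
TMM-scaled CPM (log axis) of 8 genes in every library of KO FN, KO untreated (untr.), WT LPS 0.1 ng/ml and WT untreated cells; bars are geometric means of 3 libraries. For Tnf, Il1b, Cxcl1 and Tnfaip2 the KO FN and WT LPS libraries overlap, whereas for Rsad2, Cxcl10, Irf1 and Tap1 every KO FN library lies below every WT LPS library.

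Cytokines and chemokines split by gene. Of 20 cytokine genes, 13 rose with FN in KO cells and 15 with LPS in WT cells; the median change was 2.21 in KO FN and 4.56 in WT LPS. Of 18 chemokine genes, 14 rose in KO FN and 16 in WT LPS, with medians of 2.69 and 5.01. The difference was called for 4 cytokines (Il6, Il27, Il15 and Csf1) and 4 chemokine genes (Cxcl10, Cxcl11, Ccl7 and Ccrl2), each lower in KO FN. With the preparation term it was called for 3 cytokines and 3 chemokine genes, each lower in KO FN. In that fit 15 cytokines rose and 1 fell in KO FN, and 16 rose in WT LPS. Il6 had 2.98, 1.02 and 2.88 CPM in KO FN libraries and 0.675, 0.587 and 0.943 CPM in KO untreated ones. With LPS WT cells reached 38.9, 23.9 and 5.18 CPM, against 0.364, 0.237 and 0.691 CPM untreated. Every WT LPS library lay above every KO FN library; the difference was -4.06 ± 0.95 (adjusted p = 0.0441), with the preparation term its adjusted p was 0.139, and the call was lost in 11 of 12 fits that left out 1 library, WT LPS replicate 3 being the exception. Il27, whose protein acts on T cells, rose by 2.31 ± 0.41 in KO FN and 5.46 ± 0.46 in WT LPS. Il15, a growth factor of natural killer cells, rose in WT LPS by 2.83 ± 0.32 and changed by 0.39 ± 0.30 in KO FN, which did not pass. Csf1, the ligand of the receptor that keeps microglia alive, rose by 1.41 ± 0.27 in KO FN and 3.27 ± 0.29 in WT LPS; its call was lost in 6 of the 12 fits.

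Cxcl10, an interferon-induced chemokine for T cells, had 232, 182 and 65.4 CPM in KO FN libraries, against 13.5, 11.4 and 19.8 CPM in KO untreated libraries. In WT LPS libraries it had 4108, 3409 and 1723 CPM, against 18.4, 8.71 and 11.7 CPM in WT untreated libraries. It rose in both states, by 3.42 ± 0.57 in KO FN and 7.89 ± 0.70 in WT LPS, and the difference was -4.47 ± 0.77 (adjusted p = 0.00501). Cxcl11, a ligand of the same receptor, was at 0.419, 0.366 and 0.720 CPM in KO FN and 0.289, 0.477 and 1.05 CPM in KO untreated libraries. It had 13.4, 13.1 and 5.64 CPM in WT LPS and 0.208, 0.189 and 0.444 CPM in WT untreated libraries, and its difference of -5.49 ± 0.93 had an adjusted p of 0.00486, or 0.0849 with the preparation term. Ccl7, a monocyte chemokine, differed by -3.59 ± 0.69 and Ccrl2, an atypical chemokine receptor, by -2.50 ± 0.44. Ccl3 and Ccl4, macrophage inflammatory proteins, rose in both: by 3.54 ± 0.31 and 3.54 ± 0.29 in KO FN, 3.47 ± 0.31 and 3.97 ± 0.29 in WT LPS. Ccl5, another T cell chemokine, rose by 3.79 ± 0.60 in KO FN and 5.56 ± 0.65 in WT LPS, and Il12b, a subunit of interleukins 12 and 23, by 3.96 ± 0.63 in KO FN and 6.42 ± 0.71 in WT LPS. Their differences of -1.77 ± 0.78 and -2.46 ± 0.83 did not pass (adjusted p = 0.737 and 0.326).

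Of the gene lists, the interferon-stimulated genes had the lowest median difference. Of 40 tested, 7 rose with FN in KO cells (Ifit1, Mx2, Gbp2, Gbp3, Gbp5, Gbp7 and Parp14) and 37 with LPS in WT cells, with median changes of 0.62 in KO FN and 3.71 in WT LPS. The difference was called for 28 of the 40, each lower in KO FN, and all 40 fitted differences were below 0, with a median of -3.17. With the preparation term 36 of 40 were called, 11 rose in KO FN and 40 in WT LPS. The 40 genes together had 1984, 1958 and 1207 CPM in KO FN libraries, against 892, 1386 and 929.6 CPM in KO untreated libraries. Together they had 18908, 21257 and 10242 CPM in WT LPS libraries, against 848, 1110.0 and 1185 CPM in WT untreated libraries. Even the weakest WT LPS library stood above every KO FN library. The count of 28 fell to 18 without KO FN replicate 3 and to 17 without WT untreated replicate 1; without WT LPS replicate 3 it was 27. Near-identical copies within the Ifit, Gbp, Irgm and Oas families make the counts of single members uncertain.

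Rsad2 (viperin, an antiviral enzyme) had 78.6, 55.5 and 41.7 CPM in KO FN libraries and 21.6, 28.0 and 29.8 CPM in KO untreated libraries. It had 2655, 4308 and 1182 CPM in WT LPS libraries and 25.2, 25.6 and 22.1 CPM in WT untreated libraries. The KO FN libraries lay above the KO untreated ones by 1.15 ± 0.45, which did not pass (adjusted p = 0.0967), whereas the WT LPS response was 6.80 ± 0.57, and the difference was -5.66 ± 0.67 (adjusted p = 3.7e-04). Ifit1, which binds viral RNA, had 49.0, 40.4 and 17.2 CPM in KO FN and 11.2, 12.1 and 12.6 CPM in KO untreated libraries. WT cells had 1329.6, 1406 and 619 CPM with LPS and 10.8, 9.37 and 12.9 CPM untreated. Ifit1 rose in both states, and the difference was -5.09 ± 0.68 (adjusted p = 9.8e-04). Cmpk2 (a nucleotide kinase next to Rsad2), Mx1 (an antiviral GTPase) and Oasl1 (of the oligoadenylate synthetase family) differed by -5.30 ± 0.63, -5.17 ± 0.87 and -4.87 ± 0.89. Gbp5, a guanylate-binding protein that coats intracellular bacteria, had 53.6, 47.5 and 34.5 CPM in KO FN and 3.33, 3.12 and 4.38 CPM in KO untreated libraries. It had 571, 525 and 163 CPM in WT LPS and 5.40, 2.41 and 3.75 CPM in WT untreated libraries. Gbp5 had the largest called rise of the list in KO FN, 3.65 ± 0.45, and still differed by -3.12 ± 0.60. The 12 members uncalled for the difference were Oas1a, Oas1g, Oas2, Oas3, Oasl2, Gbp6, Ifi44, Ifi204, Rtp4, Trim30a, Bst2 and Tgtp1, of which Gbp6, Ifi44 and Tgtp1 were uncalled with the preparation term too.

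Among interferon genes and their signalling, 17 were tested: 6 rose and 1 fell with FN in KO cells and 12 rose with LPS in WT cells. Of the 17, 7 had a called lower response in KO FN, among them Stat2, Irf1, Irf7, Irf9, Usp18 and Socs1. With the preparation term 6 had one, 7 rose and 1 fell in KO FN, and 13 rose and 1 fell in WT LPS. Ifnb1, interferon beta, had 32 reads over the KO FN libraries and 15 over the KO untreated ones, a scaled ratio of 2.33 (95% counting interval 1.23 to 4.64). It had 275 reads over the WT LPS libraries and 3 over the WT untreated ones, a ratio of 104 (35.3 to 509). These intervals cover counting error only, and the Ifnb1 difference did not pass (adjusted p = 0.0588). Irf1, a transcription factor that NF-kB and interferons induce, had 169, 115 and 123 CPM in KO FN and 37.0, 36.6 and 28.9 CPM in KO untreated libraries. It had 1037, 865 and 463 CPM in WT LPS and 38.9, 36.1 and 42.6 CPM in WT untreated libraries. Irf1 rose in both states, and the WT LPS libraries all exceeded the KO FN libraries; the difference was -2.34 ± 0.38 (adjusted p = 0.00397). Stat2, part of the factor that interferon receptors activate, changed by -0.06 ± 0.30 in KO FN and rose by 2.96 ± 0.32 in WT LPS. Irf7, the factor that amplifies interferon production, changed by 0.33 ± 0.61 in KO FN and rose by 4.13 ± 0.69 in WT LPS, and its called difference was lost in 8 of 12 fits without 1 library. Usp18, which restrains the interferon receptor, and Socs1, an inhibitor of JAK kinases, differed by -4.74 ± 0.64 and -5.08 ± 0.95; Socs1 had an adjusted p of 0.0805 with the preparation term. Ifnar1, a receptor chain for these interferons, rose by 0.41 ± 0.13 in KO FN and 0.43 ± 0.13 in WT LPS. Ticam1, the TRIF adaptor, rose by 1.25 ± 0.22 in KO FN and changed by 0.56 ± 0.22 in WT LPS (adjusted p = 0.103, or 1.7e-04 with the preparation term), and its difference was called with the preparation term (adjusted p = 0.00333) and not without it (0.789).

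**Figure D3:**
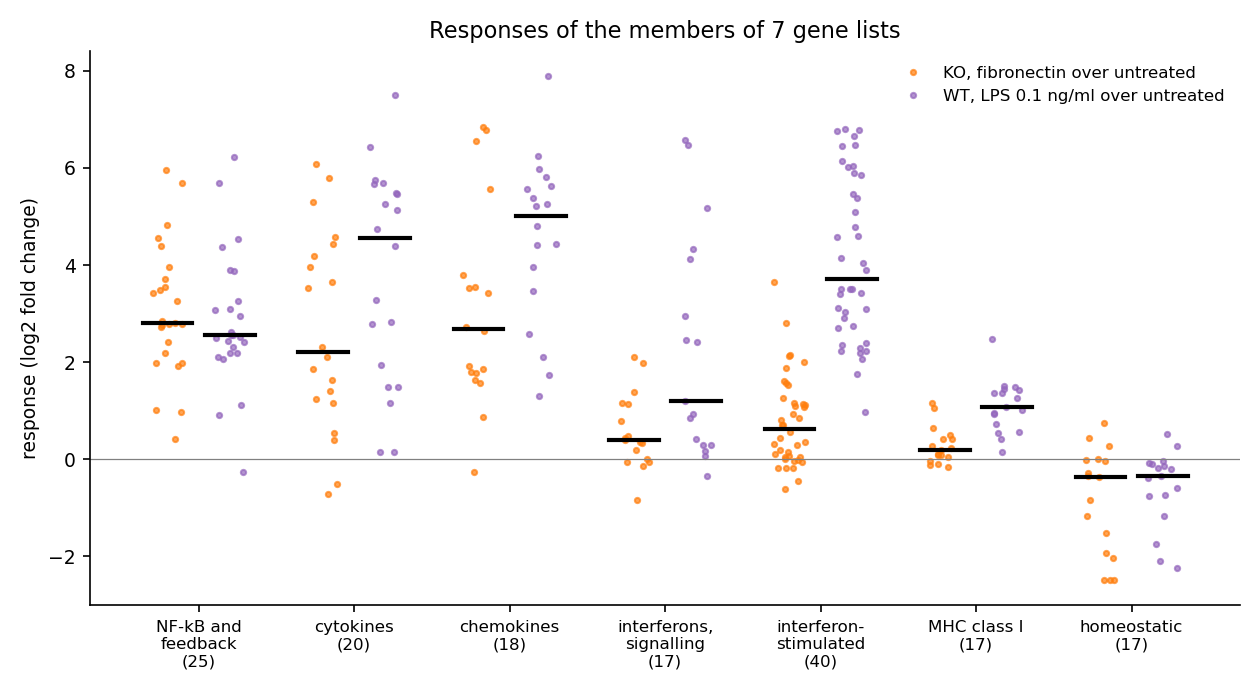
Log2 fold changes of the members of 7 gene lists (number tested in brackets), with fibronectin in KO cells on the left of each pair and LPS 0.1 ng/ml in WT cells on the right; bars are medians. The medians are 2.80 and 2.55 for the NF-kB list, and 0.62 and 3.71 for the interferon-stimulated genes.

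Promoters of 5 of these genes are shown, picked only among those that hold a match to a short motif of the 2 branches. One motif was the core of the interferon-stimulated response element (ISRE, searched as GAAA, any 2 bases and GAAA). The other was a kappaB site (searched as GGG, any 2 bases, TT, any base and CC). Both strands were searched, allowing overlaps. Genes without a match were passed over, among them Cmpk2, whose difference was larger than that of Ifit1. Ifit2, Oasl1, Tnf, Tnfaip2 and Icam1 also held neither motif, so the 5 do not stand for all named genes. The sequences are the 250 bases before the annotated start in RefSeq (GRCm38.p6), read 5′ to 3′ on the gene's strand, with motif matches in capitals and positions counted back from the start. Rsad2 (chr12:26456453-26456702, minus strand) has an ISRE match at -120 to -111. Ifit1 (chr19:34640639-34640888, plus) has ISRE matches at -104 to -95 and -85 to -76 and a kappaB match at -159 to -150. Cxcl10 (chr5:92348890-92349139, minus) has an ISRE match at -213 to -204 and a kappaB match at -103 to -94. Il6 (chr5:30012864-30013113, plus) has a kappaB match at -44 to -35. Cxcl1 (chr5:90890995-90891244, plus), chosen with its values known as a gene that rose in both states, has kappaB matches at -89 to -80 and -71 to -62.
Rsad2: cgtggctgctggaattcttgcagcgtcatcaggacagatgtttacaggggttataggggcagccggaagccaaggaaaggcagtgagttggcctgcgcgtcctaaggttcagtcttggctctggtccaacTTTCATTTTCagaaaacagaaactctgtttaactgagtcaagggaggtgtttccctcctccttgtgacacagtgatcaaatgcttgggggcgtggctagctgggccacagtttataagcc
Ifit1: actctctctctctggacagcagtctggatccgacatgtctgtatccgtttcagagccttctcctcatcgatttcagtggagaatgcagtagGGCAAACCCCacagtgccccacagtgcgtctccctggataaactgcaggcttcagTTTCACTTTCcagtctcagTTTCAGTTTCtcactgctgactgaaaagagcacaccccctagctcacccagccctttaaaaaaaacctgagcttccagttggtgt
Cxcl10: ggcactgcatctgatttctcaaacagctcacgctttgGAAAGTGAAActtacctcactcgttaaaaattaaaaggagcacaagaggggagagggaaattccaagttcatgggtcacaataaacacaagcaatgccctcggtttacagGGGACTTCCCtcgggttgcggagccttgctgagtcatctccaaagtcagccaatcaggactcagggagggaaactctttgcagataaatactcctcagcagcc
Il6: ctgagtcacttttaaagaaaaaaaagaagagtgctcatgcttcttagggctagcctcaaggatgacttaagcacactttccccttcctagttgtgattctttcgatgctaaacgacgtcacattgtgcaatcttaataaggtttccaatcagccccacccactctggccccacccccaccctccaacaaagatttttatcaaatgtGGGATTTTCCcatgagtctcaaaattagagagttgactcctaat
Cxcl1: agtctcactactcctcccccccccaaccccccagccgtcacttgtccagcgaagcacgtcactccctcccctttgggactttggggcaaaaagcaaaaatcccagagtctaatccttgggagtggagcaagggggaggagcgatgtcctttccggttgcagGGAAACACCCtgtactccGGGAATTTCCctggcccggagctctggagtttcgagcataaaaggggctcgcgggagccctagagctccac

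A promoter entry was found for 9414 of the 13294 genes tested, and 3.36% of these held an ISRE match and 5.81% a kappaB match. Of the 137 genes with a lower response in KO FN, 94 had an entry, and 26.6% held an ISRE match and 12.8% a kappaB match. Of the 800 genes that rose in both states without a called difference, 581 had an entry, with 3.1% and 8.95%. The interferon-stimulated list (30 entries) had 56.7% and 6.67%, and the NF-kB list (21 entries) had 0% and 33.3%. A match describes these letters alone and no match says nothing of the factor; the shares are descriptions with no test.

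Of 17 genes of antigen presentation by MHC class I, 3 rose with FN in KO cells and 14 with LPS in WT cells; the median was 0.19 in KO FN and 1.08 in WT LPS. Tap1 and Tap2, which together form the peptide transporter, had the called differences, and that of Tap2 was lost in 11 of 12 fits without 1 library; with the preparation term 8 of 17 were called, each lower in KO FN, and 6 rose in KO FN and 16 in WT LPS. Tap1 had 44.9, 50.1 and 42.5 CPM in KO FN and 45.6, 59.5 and 41.0 CPM in KO untreated libraries. It had 312, 296 and 204 CPM in WT LPS and 43.7, 54.4 and 47.9 CPM in WT untreated libraries. The KO groups overlapped while the WT groups were far apart, and the difference was -2.56 ± 0.36 (adjusted p = 0.00112). B2m, the light chain of MHC class I, passed in neither state, at 0.10 ± 0.18 in KO FN and 0.42 ± 0.18 in WT LPS. B2m rose in WT LPS with the preparation term (adjusted p = 0.00119). Of 11 costimulation and MHC class II genes 6 rose in each state, and Cd274 (the inhibitory ligand PD-L1) was the 1 with a called difference, -2.94 ± 0.41 (adjusted p = 0.00112). With the preparation term 7 of the 11 rose and 1 fell in KO FN, and 9 rose in WT LPS. Icosl, a costimulatory ligand, rose by 4.26 ± 0.33 in KO FN and 3.58 ± 0.32 in WT LPS.

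Within the 137 genes, 104 rose with LPS in WT cells without a called change in KO FN, and 20 rose in both states but less in KO FN. A further 4 moved in opposite directions, falling with FN in KO cells and rising with LPS in WT cells: Trim25, Fam46a, Trim14 and Stoml1. Trim25, the ubiquitin ligase that acts on the RNA sensor RIG-I, had 79.9, 74.9 and 58.8 CPM in KO FN and 149, 192 and 228 CPM in KO untreated libraries. It had 521, 444 and 378 CPM in WT LPS and 137, 140.4 and 205 CPM in WT untreated libraries. Each KO FN library lay below each KO untreated one and each WT LPS library above each WT untreated one, with changes of -1.41 ± 0.25 and 1.48 ± 0.25 (adjusted p = 5.6e-04 and 3.3e-04). Fam46a, a poly(A) polymerase, had 17.3, 13.6 and 13.1 CPM in KO FN and 35.5, 39.8 and 39.7 CPM in KO untreated libraries, and 131, 134 and 104 CPM in WT LPS and 36.9, 39.4 and 47.5 CPM in WT untreated libraries. Its difference of -2.96 ± 0.29 had the smallest adjusted p of these 4, 9.4e-05. Trim14, an adaptor of antiviral signalling, and Stoml1 differed by -2.05 ± 0.35 and -1.32 ± 0.26. Another 8 fell with FN in KO cells without a called change in WT LPS. The last, Rgs2, a regulator of G protein signalling named after its values were seen, fell in both states, by -2.79 ± 0.30 in KO FN and -1.02 ± 0.28 in WT LPS. Opposite calls were more numerous with the preparation term, where 42 of the 466 lower genes fell in KO FN and rose in WT LPS. Of the 466, 226 rose in WT LPS and 84 fell in KO FN with no called change in the other state. A further 67 rose in both and 47 fell in both, calls here being those of that fit.

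In the other direction a single gene passed. Zfp703, a zinc finger repressor, had 62.4, 40.3 and 46.8 CPM in KO FN and 45.5, 36.1 and 42.3 CPM in KO untreated libraries. It had 24.6, 22.9 and 17.2 CPM in WT LPS and 42.3, 39.6 and 34.4 CPM in WT untreated libraries. It fell with LPS in WT cells by a log2 change of -0.85 ± 0.19, its change in KO FN of 0.27 ± 0.19 did not pass (adjusted p = 0.403, or 0.0499 with the preparation term), and the difference was 1.12 ± 0.26 (adjusted p = 0.0476). The call was lost in 11 of 12 fits without 1 library (adjusted p up to 0.159; kept without KO FN replicate 2), while its adjusted p with the preparation term was 2.0e-04. The 241 genes with a higher KO FN response under the preparation term comprised 95 that rose in KO FN with no called change in WT LPS, 80 that rose in both, 40 that fell in WT LPS with no called change in KO FN, 20 with opposite calls and 6 that fell in both, calls here being those of that fit.

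The largest of these were Gdf15, Lox, Marco, Ednrb, Phlda1 and Siglece. Gdf15, a stress-induced cytokine, had 7.85, 7.93 and 42.6 CPM in KO FN and 2.70, 0.843 and 2.83 CPM in KO untreated libraries. It had 3.84, 3.35 and 2.06 CPM in WT LPS and 1.97, 2.79 and 1.92 CPM in WT untreated libraries. Replicate 3 of KO FN was far above the other 2, and the difference was 2.73 ± 1.02, with an adjusted p of 0.0216 with the preparation term and 0.472 without it. Lox, lysyl oxidase, which cross-links collagen and elastin, had 21.9, 13.9 and 19.4 CPM in KO FN and 1.30, 0.477 and 0.388 CPM in KO untreated libraries. It had 15.9, 26.2 and 7.15 CPM in WT LPS and 2.81, 4.35 and 0.888 CPM in WT untreated libraries. Stimulated libraries overlapped between the states but untreated KO libraries were mostly lower, and the difference was 2.06 ± 0.78 (adjusted p = 0.00621 with the term, 0.517 without). Phlda1, a gene of the pleckstrin homology-like family, rose by 3.90 ± 0.49 in KO FN and 2.55 ± 0.47 in WT LPS. Ednrb, an endothelin receptor, rose by 2.48 ± 0.56 in KO FN and changed by 0.90 ± 0.54 in WT LPS (adjusted p = 0.333, or 0.0126 with the term). Siglece, an inhibitory sialic acid receptor, rose in both states. Marco, a scavenger receptor, passed in neither state without the preparation term and in both with it (adjusted p = 5.5e-06 and 2.4e-04), and varied widely, at 29.3, 8.62 and 4.74 CPM in KO FN, 2.70, 0.147 and 0.388 CPM in KO untreated, 49.2, 73.3 and 2.87 CPM in WT LPS and 10.0, 27.3 and 0.444 CPM in WT untreated libraries.

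Osgin1, an oxidative stress gene, rose with FN in KO cells by 1.26 ± 0.31, and its change in WT LPS was -0.06 ± 0.31. Because Osgin1, Srxn1 and Gclm (a subunit of the enzyme that begins glutathione synthesis) stood among these genes, 20 known targets of Nrf2, the factor that switches on glutathione and thioredoxin genes, were listed after the values were seen; their counts are a description with no test. Of the 20, 13 rose in KO FN and 7 in WT LPS without the preparation term, against 9.23% and 9.94% of all genes. With the term 17 rose in KO FN and 13 in WT LPS, against 21.5% and 21.2%. Their medians were 0.82 and 0.44. Without the term 0 passed the test of the difference, against 1.04% of all genes, while 8 had a called higher response in KO FN with it. Those 8 include the 3 genes that prompted the list; of the other 17, 5 were called higher with the term, against 1.81% of all genes, and without it 10 rose in KO FN and 5 in WT LPS. Srxn1, sulfiredoxin, had 473, 544 and 598 CPM in KO FN and 92.7, 86.4 and 135 CPM in KO untreated libraries. It had 277, 212 and 241 CPM in WT LPS and 98.8, 94.5 and 98.5 CPM in WT untreated libraries. All KO FN libraries exceeded all WT LPS libraries, and the difference was 1.04 ± 0.25 (adjusted p = 0.0554, or 0.00262 with the term). Txnrd1 (thioredoxin reductase), Gsr (glutathione reductase) and Sqstm1 (the autophagy receptor p62) rose in both states. Their changes were 2.48 ± 0.21, 1.65 ± 0.16 and 2.55 ± 0.21 in KO FN, and 1.93 ± 0.21, 0.85 ± 0.16 and 1.76 ± 0.20 in WT LPS. Hmox1, heme oxygenase 1, rose by 1.04 ± 0.26 in KO FN and changed by 0.46 ± 0.26 in WT LPS (adjusted p = 0.301, or 0.0085 with the term); its difference passed neither without the term (0.99994) nor with it (0.0959).

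**Figure D4:**
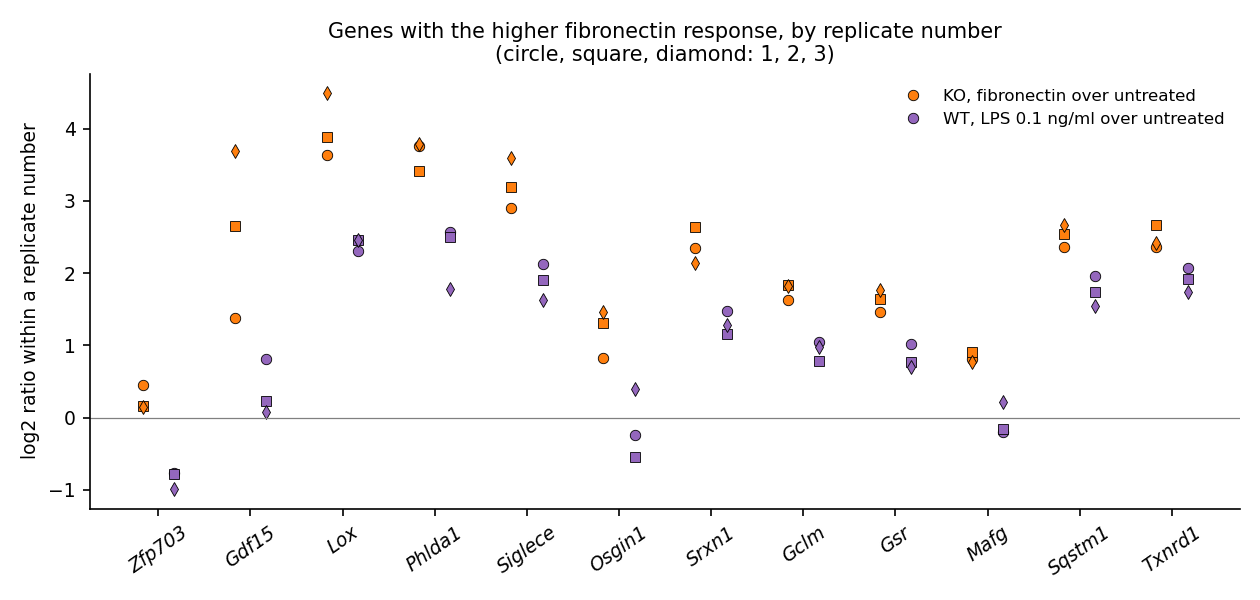
Log2 ratio of a stimulated library to the untreated library of the same replicate number (CPM + 0.5) for 12 genes chosen for their higher response in KO FN, with KO FN in orange on the left and WT LPS in purple on the right. For each of the 12 the 3 KO FN ratios lie above the 3 WT LPS ratios, most narrowly for Txnrd1. This separation follows largely from the choice of genes, which used the same libraries. Among listed Nrf2 targets not shown, some separated (such as Hmox1 and Gclc) and others did not (such as Nqo1 and Slc7a11).

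Several of the deepest falls were called in both states. Lpar6 (a lysophosphatidic acid receptor), Engase (an endoglycosidase) and Thbd (thrombomodulin) fell by log2 changes of -3.57 ± 0.33, -3.32 ± 0.51 and -3.29 ± 0.52 in KO FN, and of -2.92 ± 0.32, -2.88 ± 0.50 and -3.13 ± 0.53 in WT LPS. Rnf144b, a ubiquitin ligase, had the deepest named fall in KO FN: 2.93, 3.21 and 2.28 CPM in KO FN, against 60.8, 76.0 and 67.1 CPM in KO untreated libraries. It had 6.99, 9.72 and 29.1 CPM in WT LPS and 35.5, 43.6 and 86.5 CPM in WT untreated libraries. The KO FN libraries lay below every other library, and the difference of -2.74 ± 0.74 was called with the preparation term (adjusted p = 4.1e-06) but not without it (0.106). Of 17 homeostatic microglial genes 7 fell with FN in KO cells and 5 with LPS in WT cells, against 7.17% and 5.66% of all genes. Their medians were -0.36 and -0.35. The difference was called for 0 of them, against 1.04% of all genes, a share that 17 genes cannot tell from 0. With the preparation term 11 fell and 1 rose in KO FN, 10 fell and 1 rose in WT LPS, and the difference was called for Mertk and P2ry13, both lower in KO FN. Mertk, a receptor for dying cells, fell by a log2 change of -2.48 ± 0.25 in KO FN and -1.18 ± 0.24 in WT LPS. Gpr34, a lysophosphatidylserine receptor, fell by a log2 change of -2.49 ± 0.26 in KO FN and -1.74 ± 0.25 in WT LPS, and Csf1r, the receptor of Csf1, passed in neither, at 0.43 ± 0.20 in KO FN and 0.27 ± 0.20 in WT LPS. Csf1r rose in both with the preparation term (adjusted p = 2.8e-05 and 0.00295).

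Of 25 genes of fibronectin, integrins and matrix proteases, 6 rose and 4 fell in KO FN and 6 rose and 2 fell in WT LPS. The difference was called for 0 of the 25, against 1.04% of all genes. With the preparation term 11 rose and 4 fell in KO FN, 14 rose and 3 fell in WT LPS, and the difference was called for Itga5, higher in KO FN, and Thbs1 (thrombospondin-1), lower. Itga5, the alpha chain of the main fibronectin receptor, had 904, 1161 and 1408 CPM in KO FN and 187, 209 and 320.1 CPM in KO untreated libraries. It had 905, 747 and 587 CPM in WT LPS and 252, 217 and 179 CPM in WT untreated libraries. It rose in both, and its difference of 0.49 ± 0.35 was called with the preparation term (adjusted p = 0.0253) but not without it. Fn1, fibronectin itself, passed in neither state without the preparation term and spread widely between preparations, at 1527, 423 and 385 CPM in KO FN, 1021, 223 and 223 CPM in KO untreated, 1846, 1352 and 478 CPM in WT LPS and 1009, 780.4 and 337 CPM in WT untreated libraries. Within same-numbered pairs Fn1 was higher in the stimulated library in all 6, by log2 ratios of 0.58 to 0.92 in KO FN and 0.50 to 0.87 in WT LPS, and with the term it rose in both states (adjusted p = 1.6e-04 and 2.5e-04). Of 20 cell cycle genes 0 changed in either state without the term, against 16.4% and 15.6% of all genes, while with it 4 fell in KO FN and 6 in WT LPS, against 22.5% and 20.4%. Of 19 cholesterol synthesis genes 2 rose and 1 fell in KO FN and 1 rose and 1 fell in WT LPS, or 3 and 3 in each state with the term. Among 19 immediate early genes 3 rose and 3 fell in KO FN and 5 rose and 1 fell in WT LPS. The difference was called for 0 of them, against 1.04% of all genes. With the term 7 rose and 6 fell in KO FN and 10 rose and 4 fell in WT LPS. For the fibronectin, cholesterol and immediate early lists the shares over all genes were 9.23% risen and 7.17% fallen in KO FN. In WT LPS they were 9.94% and 5.66%. With the term they were 21.5% and 22.5% in KO FN and 21.2% and 20.4% in WT LPS. KO replicate 3 was low in cell cycle genes, at 298 CPM summed over 20 genes in KO FN and 379.6 CPM in KO untreated cells, against 1003 to 2199.5 CPM in the other 10 libraries.

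The stimulated libraries were also compared directly. In level, 473 genes differed between KO FN and WT LPS libraries (3.56%), 93 higher in KO FN (0.7%) and 380 lower (2.86%). This split depended on the fit: 205 were higher and 531 lower with DESeq2, 320 and 661 with a term for the replicate number, and 37 and 238 without KO FN replicate 3. The term for the replicate number joins numbers across genotypes, where the pairing was not clear. All 137 genes with the lower response in KO FN were among the 380, with a median level difference of -2.36. Both comparisons use the same KO FN and WT LPS libraries, and 1 gene was called between the untreated groups. The overlap was therefore close to fixed in advance and is not independent evidence. Untreated levels of the 137 genes differed little between the genotypes, with a median of 0.03 for KO minus WT and 126 of 137 within 0.5 log2 units.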

How the data were processed

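RNA was made into libraries with a TruSeq kit for sequencing on a HiSeq2000, per the labels' protocols. Per the submitters' processing notes, the genome was mm10 and the tools were Bowtie2 2.1.0, CASAVA 1.8.2, DESeq, FastQC 0.10.0, HTSeq 0.5.4 and SAMtools 0.1.19, with no order given; the annotation and strand setting are not given in the sources used here. The authors deposited whole read counts per gene symbol, which were used for every test, and a normalized signal for 12889 genes, which was used for 1 alternative and equals the counts divided by a factor per library to within 0.144 units.

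The test was edgeR 4.0.16 (R 4.3.3) on the counts: filterByExpr (minimum count 10, total 15), TMM scaling, a robust quasi-likelihood fit of 8 groups in all 24 libraries (16 residual degrees of freedom), prior count 0.125, and Benjamini-Hochberg adjustment over 13294 genes within each contrast. Standard errors are the log2 change divided by the square root of F. The script was checked on simulated counts.

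Same-numbered libraries of a genotype deviated together. Over 9582 genes the correlation of their deviations from group means was 0.787 to 0.956, against -0.799 to 0.340 for different numbers of a genotype. Between genotypes it was 0.225 to 0.895 for the same number and -0.785 to 0.769 for different numbers, so these ranges overlapped. KO FN replicate 2 went with WT LPS replicate 3 (0.726) more than with WT LPS replicate 2 (0.395). Negative values between different numbers are partly built in, because deviations were taken from means of 3 libraries. The numbers therefore pair the samples within a genotype only. A fit with a preparation term (replicate number nested in genotype) is given beside many of the results whose calls it changed. Replicates are separate preparations per the series' design text, and all differed beyond sampling noise.

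The members and gene lists were chosen with earlier results of these data known. Genes were named by a rule, with 14 always named. Up to 12 with the largest difference in each direction were added, filled from the fit with the preparation term. So were the 6 largest rises and falls of each response, 6 shared and up to 10 opposite genes. Each list gave up to 4 called and 2 uncalled members. Difference, response and shared picks had to average 5 CPM or more in a group. Their stimulated and untreated libraries also had to be free of overlap in a response, so that separation was set by the choice. Gbp5, Irf1, Nfkbia, Zc3h12a, Ticam1, Mertk, Gpr34, Rgs2, Alox5ap, Thbs1, Cxcl1's promoter and the Nrf2 genes were named after their values were seen. Alternatives were DESeq2 1.42.0, limma 3.58.1 on log2(signal + 1), other scaling, filters and libraries. The sequences came from RefSeq tables.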

Additional observations from a re-analysis of the deposited data

How the results depend on the processing

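Main counts were 138 genes for the difference of response, 2180 for FN in KO cells, 2075 for LPS in WT cells and 473 for the level of KO FN against WT LPS. DESeq2 called 249 (22 higher in KO FN, 227 lower) for the difference and 736 for the level (205 higher, 531 lower, against 93 and 380 in the main fit). A replicate block over all libraries called 221, 3431, 3152 and 981 genes in the same order. That block joins replicate numbers across genotypes, where the pairing was not clear. The replicate block nested in genotype called 707, 5851 and 5520, and the level contrast cannot be estimated in that nested fit. Relative to the main fit the nested block ended the calls of Il6, Cxcl11, Socs1 and Gbp4 among the 30 named genes called for the difference. Leaving out 1 library in turn gave 82 (without WT untreated replicate 2) to 202 (without WT LPS replicate 3) for the difference, 1558 to 2298 for FN in KO cells, 1303 (without WT LPS replicate 1) to 2530 for LPS in WT cells and 275 (without KO FN replicate 3) to 622 for the level. The difference count was also 83 without KO FN replicate 3, 86 without WT LPS replicate 1 and 85 without WT untreated replicate 1, and the level count 307, 314 and 279 (of which 46, 43 and 30 higher in KO FN) without KO FN replicate 2, WT LPS replicate 1 and WT LPS replicate 2. Of the 30 named genes, 21 kept their call in each of those 12 fits and 9 lost it in 1 or more. Other scaling, filters, limma and the fit of the 12 libraries alone gave 125 to 165 for the difference. Without 3 libraries with over 1% of reads on Rn45s, an alternative chosen after seeing the data, it was 172. No named gene reversed its direction where called. The cause of these changes was not tested. With 3 libraries a group, the median 95% half-width of a difference was 0.67 log2 units in the main fit, which has no preparation term. Differences smaller than that were mostly not detectable in the main fit. The half-width is that of single genes and is not the size needed to pass the adjustment over 13294 genes.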

Other observations

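Within the immediate early and homeostatic lists, Myc, Klf2 and P2ry13 were among the genes with a called difference of response with the preparation term and not without it. Myc, a growth-promoting transcription factor, changed by 0.69 in KO FN and -0.93 in WT LPS (log2), with an adjusted p for the difference of 0.227, or 0.0165 with the preparation term. Klf2, a factor that restrains macrophage activation, changed by -0.87 in KO FN and 0.50 in WT LPS, with an adjusted p of 0.681, or 0.00228 with the term. P2ry13, a nucleotide receptor of resting microglia, fell in KO FN by a log2 change of -2.48 and changed by -0.59 in WT LPS, with an adjusted p of 0.457, or 0.00019 with the term. These genes were tested with edgeR and were named after their values were seen.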
